A study of Mus musculus with 6 samples.

Results

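Fatty acid synthesis, elongation and oxidation genes are described here in the olfactory epithelium of mice that had lost the olfactory bulb on one side. The genes were chosen by family or gene name, with earlier results of these data known. The families were acyl-CoA synthetases, acyl-CoA thioesterases, acyl-CoA dehydrogenases, acyl-CoA oxidases, carnitine palmitoyltransferases, elongases, desaturases and fatty acid binding proteins. Further genes were the Hadh genes of beta-oxidation, and Crot, Crat, Decr1, Decr2, Echs1, Fasn, Acaca, Gpam, Eci1, Eci2, Etfa, Etfb and Etfdh. Together they numbered 79 of the 16380 genes with a signal. Of these, 71 were among the 14742 genes tested, which excluded the 10% with the lowest mean signal. The other 8 were Acsm2, Acot3, Acot5, Elovl3, Fabp1, Fabp2, Fabp6 and Fabp9, all with a mean log2 signal no higher than 5.01.

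Fatty acids enter metabolism as thioesters of coenzyme A, which acyl-CoA synthetases make and acyl-CoA thioesterases split. Carnitine acyltransferases pass the acyl chain between coenzyme A and carnitine, and as acylcarnitine it crosses into the mitochondrial matrix. There beta-oxidation shortens it and hands electrons to the respiratory chain through the electron transfer flavoprotein, while peroxisomes shorten the longest and branched chains. In the opposite direction fatty acid synthase builds palmitate from malonyl-CoA, elongases of the endoplasmic reticulum lengthen it and desaturases add double bonds. Neurons store and burn little fat, but their membranes, and above all the cilia and outer segments of sensory neurons, are rich in long polyunsaturated chains.

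Each of 3 male C57BL/6 mice had one olfactory bulb removed, and 5 days later the epithelium ipsilateral to the lesion (OBX) and the contralateral epithelium (control) were taken, giving 1 OBX and 1 control array per mouse. The sample labels give an age of 8 weeks at surgery and the study's methods a different one. All mice were of the same strain and all had surgery, so the control side comes from an operated animal. Bulbectomy severs the axons of the olfactory sensory neurons (OSNs), which die and are replaced from basal cells of the epithelium. RNA was hybridized to Affymetrix Mouse Exon 1.0 ST arrays, and values are log2 signals, which are compared here between sides and not between genes because probes differ in brightness. A difference is the log2 signal on the OBX side minus that on the control side of the same mouse, given as the mean of 3 mice with its standard error (SE).

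The arrays had median log2 probe set signals of 8.46 to 8.61 on the control side and 8.46 to 8.65 on the OBX side, and Pearson correlations over probe sets of 0.954 to 0.968 between the sides of a mouse. The OSN marker Omp, at 14.19 to 14.28 on the control arrays, marked the tissue as sensory epithelium. Mature OSN markers were lower for 13 of 13 genes tested. Their mean log2 signal lay between 12.42 and 12.64 on the control side and between 10.49 and 11.50 on the OBX side. Macrophage markers were higher for 12 of 25 and lower for 0, with means of 7.74 to 8.13 on the control side and 8.36 to 9.22 on the OBX side. This count of 12 fell to 5 without the mouse block, to 4 when ribosomal protein genes set the scale and to 6 without mouse 3. Globose basal and precursor cell markers were higher for 9 of 11 and lower for 0, with means of 8.36 to 8.59 against 9.00 to 9.31. No marker of these 3 lists was at 0, since the arrays give every probe set a signal. In bulk tissue fewer cells of a type and less RNA per cell cannot be told apart, and the part these shifts have in the values below was not tested.

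On the OBX side 18 of the 71 genes were higher and 8 were lower at an adjusted p under 0.05 (limma with mouse as a block, Benjamini-Hochberg adjustment over all 14742 genes). The members called higher were 25.4% of those tested against 9.94% of all genes, and the members called lower were 11.3% against 12.7%. In either direction 22.7% of all genes were called. Members such as Crot and Gpam are among the genes the study reported as increased on these arrays. The members were chosen with such results known, so their share called higher is not an independent result. The median difference was 0.18 over the 71 members and -0.01 over all genes, and when each array was centred on the level of ribosomal protein genes these became -0.06 and -0.25. Centring of this kind shifts all genes of an array alike, so the distance of 0.20 between the 2 medians is the same on both scales by construction. Signals on the OBX arrays were all above those on the control arrays for 26 members and all below for 7, where each direction held for 20.6% of all genes. The members that rose did so by 0.40 to 0.60, the range from Gpam to Elovl5, whereas the members that fell spanned -0.37 for Acot4 to -1.35 for Acsl6. The rises that passed thus fell in a narrow band, whose lower edge depends on the test. Acot7, at 0.45, lay inside it and did not pass. The deepest falls, of Acsl6, Fads6 and Elovl4, had no counterpart among the rises.

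**Figure D1:**
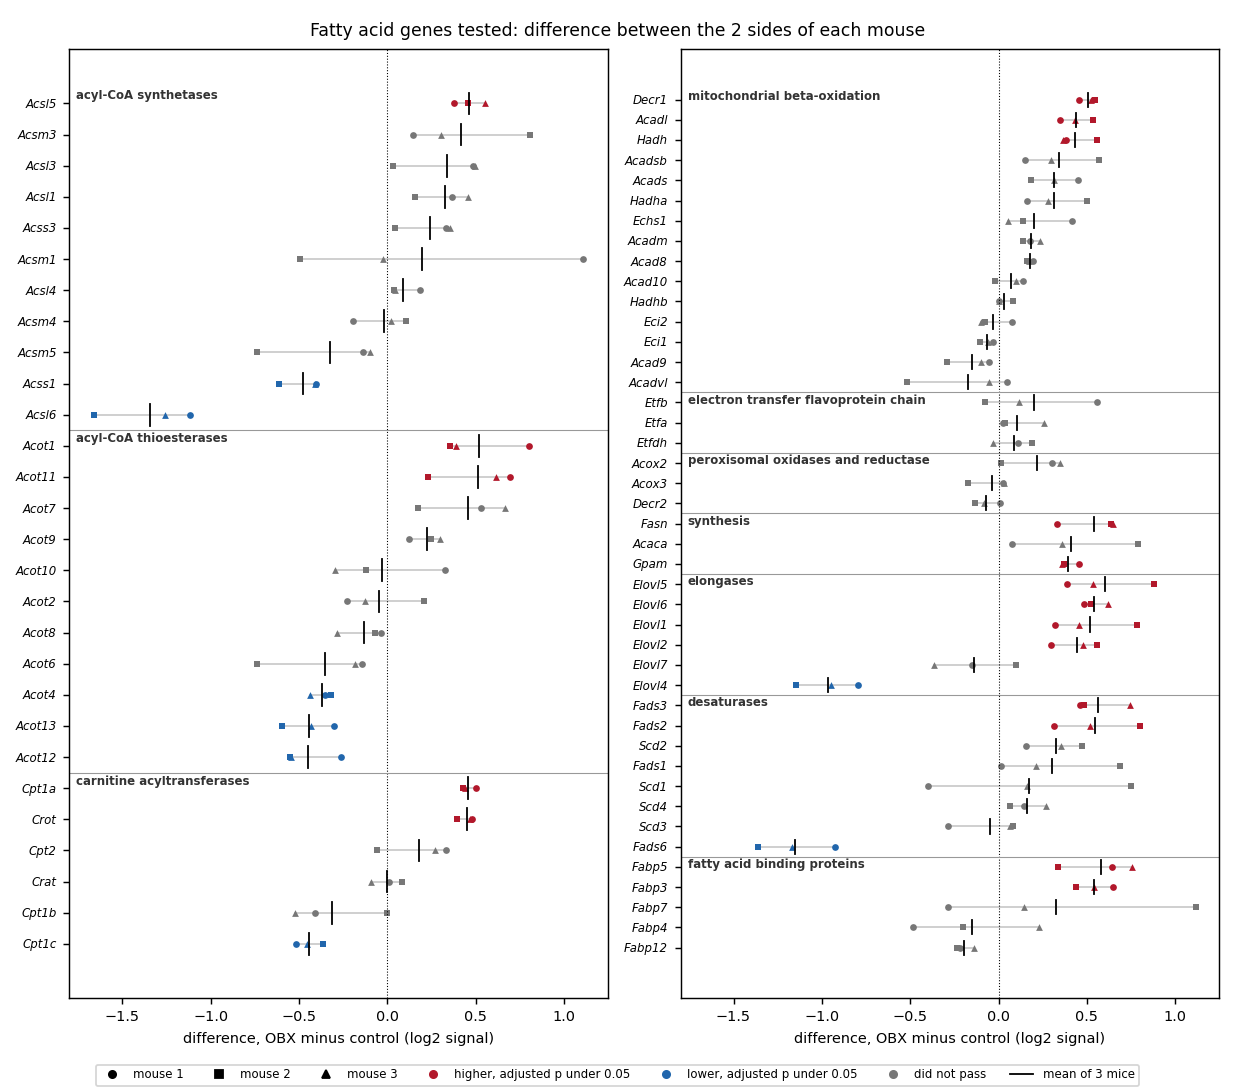
Difference between the OBX and control side (log2 signal, x axis) for the 71 fatty acid genes tested, grouped by role, with 1 symbol per mouse and a black bar at the mean of 3 mice. The 18 genes in red rose, the 8 in blue fell and the 45 in grey did not pass the test, and Acsl6, Fads6 and Elovl4 lie farthest from 0.

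The limits of these counts come from the number of mice and from the scale. Without mouse 3 no member was higher and 3 were lower, Acsl6, Elovl4 and Fads6. Calls were then few over all genes too, at 0.421% higher and 5.56% lower. Leaving out mouse 1 gave 8 higher and 4 lower members, beside 6.86% and 10.7% of all genes. Leaving out mouse 2 gave 12 and 5, beside 8.39% and 10.2% of all genes. Centring on ribosomal protein genes, which themselves had a median difference of 0.24 over 70 genes, gave 0 higher and 13 lower members, with all 18 risen genes still above 0 at 0.16 to 0.36. The same centring moved the share of higher genes among all calls from 43.9% to 5.15%, with 1.51% of all genes called higher and 27.9% lower.

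Among the enzymes that activate long-chain fatty acids, Acsl6 fell and Acsl5 rose. Acsl6, the acyl-CoA synthetase of brain and other neural tissue with a preference for polyunsaturated chains, had control signals of 12.37, 12.18 and 12.26 in mice 1, 2 and 3 and OBX signals of 11.26, 10.52 and 11.00. The groups were well separated, and mouse 2 showed the deepest fall. The mean difference was -1.35 (SE 0.13, limma adjusted p = 0.00554), which left 39.3% of the control signal. Acsl5, a mitochondrial and endoplasmic reticulum synthetase known from intestine and liver, went the other way, from 10.81, 10.73 and 10.65 to 11.19, 11.18 and 11.20. Its OBX arrays were nearly equal and all above the control arrays, at a difference of 0.46 (SE 0.09, limma adjusted p = 0.0254). Acss1, which activates acetate in mitochondria, had control signals of 11.70, 11.52 and 11.72 and OBX signals of 11.30, 10.90 and 11.31, without overlap (difference -0.48, SE 0.09, limma adjusted p = 0.0271).

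Acsl1, the main synthetase of heart and fat, had a difference of 0.33 with non-overlapping sides and did not pass (limma adjusted p = 0.0771). Acsm4, a medium-chain synthetase known from the olfactory mucosa, had signals of 12.52 to 12.92 on the control side and 12.62 to 12.82 on the OBX side, so its sides overlapped, with a difference of -0.02 (SE 0.10, limma adjusted p = 0.893). Of the 11 synthetases tested, 1 was higher, 2 were lower and 8 did not pass. Acsm1 differed most between mice, at 1.11 in mouse 1 and -0.50 in mouse 2.

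Of 6 carnitine acyltransferases tested, 2 rose, 1 fell and 3 did not pass. Cpt1a, the widely expressed outer mitochondrial membrane enzyme that commits long chains to oxidation, rose from 10.07, 9.92 and 10.10 on the control side to 10.57, 10.35 and 10.54 on the OBX side. The 3 mice differed little, at 0.50, 0.43 and 0.44, and the difference was 0.46 (SE 0.08, limma adjusted p = 0.0227). Cpt1c, the neuronal paralogue that resides in the endoplasmic reticulum and has little transferase activity, fell from 9.43, 9.28 and 9.39 to 8.92, 8.91 and 8.93, by 0.45 on average (SE 0.09, limma adjusted p = 0.0266). Its 3 OBX arrays were almost the same. Cpt1b, the muscle form, had a difference of -0.31 with overlapping sides and did not pass (limma adjusted p = 0.149).

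Crot, the peroxisomal carnitine octanoyltransferase that readies chain-shortened acyl groups for export, had control signals of 10.65, 10.84 and 10.77 and OBX signals of 11.13, 11.23 and 11.24, a difference of 0.45 without overlap (SE 0.08, limma adjusted p = 0.0241). The partner enzymes did not pass: Cpt2 of the inner membrane had a difference of 0.18 and the acetyltransferase Crat one of -0.00 (SE 0.09, limma adjusted p = 0.997). Many probe sets carried these values. Differences were positive in all 3 mice in 25 of 28 probe sets of Cpt1a and 18 of 19 of Crot, and negative in all 3 in 21 of 25 of Cpt1c.

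**Figure D2:**
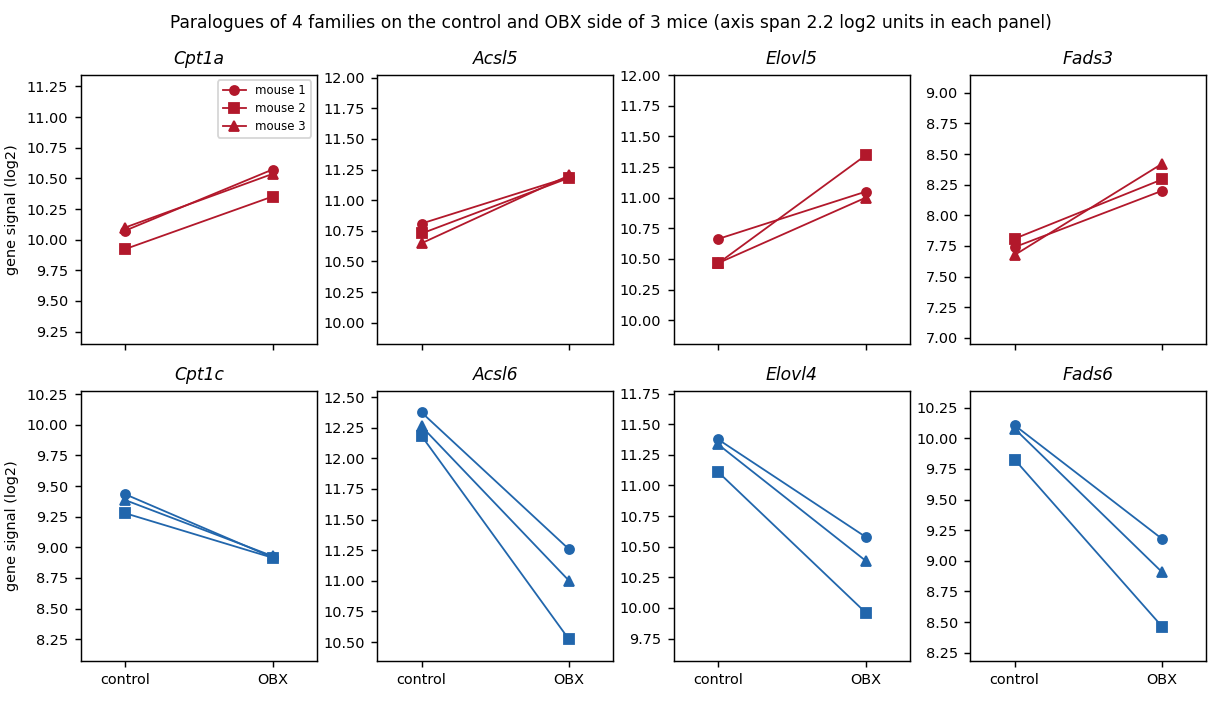
Gene signal (log2, y axis, 2.2 units in each panel) on the control and OBX side of 4 pairs of paralogues, with a line per mouse. Cpt1a, Acsl5, Elovl5 and Fads3 (red) rose and Cpt1c, Acsl6, Elovl4 and Fads6 (blue) fell in each of the 3 mice, with no overlap of sides in any panel.

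The promoters of these 4 pairs are shown because their members moved in opposite directions. Each runs 5′ to 3′ on the strand of the gene from 250 bases before to 50 after the start, as given by RefSeq on GRCm38.p6, at chr19:3323051-3323350 (+) for Cpt1a, chr7:44974802-44975101 (-) for Cpt1c, chr19:55253119-55253418 (+) for Acsl5, chr11:54303574-54303873 (+) for Acsl6, chr9:77917115-77917414 (+) for Elovl5, chr9:83806256-83806555 (-) for Elovl4, chr19:10041298-10041597 (+) for Fads3 and chr11:115297513-115297812 (-) for Fads6. Acsl6 has 3 starts with a promoter, of which the most upstream is shown. The annotated spans of Cpt1a, Acsl5 and Fads3 begin upstream of their windows, at 3322326, 55251861 and 10040855. Those of Cpt1c, Acsl6 and Fads6 begin inside their windows but upstream of the start used, at 44974880, 54303805 and 115297731. The motifs described hold only for the starts used. Capitals mark the CCAAT box, which reads ATTGG when it lies on the other strand. They also mark the E-box CACGTG and, in Acsl6, the site TGACCTTGA.
Cpt1a: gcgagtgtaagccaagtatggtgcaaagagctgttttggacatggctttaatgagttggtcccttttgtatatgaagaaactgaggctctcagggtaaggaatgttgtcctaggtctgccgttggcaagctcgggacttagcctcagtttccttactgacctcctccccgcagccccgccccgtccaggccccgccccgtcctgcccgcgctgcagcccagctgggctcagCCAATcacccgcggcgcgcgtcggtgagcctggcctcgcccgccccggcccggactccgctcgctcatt
Cpt1c: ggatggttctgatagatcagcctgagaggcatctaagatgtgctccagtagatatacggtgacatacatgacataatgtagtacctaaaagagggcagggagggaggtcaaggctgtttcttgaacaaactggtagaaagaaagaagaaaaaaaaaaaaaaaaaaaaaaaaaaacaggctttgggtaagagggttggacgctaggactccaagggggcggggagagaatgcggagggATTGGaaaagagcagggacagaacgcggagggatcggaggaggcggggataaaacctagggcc
Acsl5: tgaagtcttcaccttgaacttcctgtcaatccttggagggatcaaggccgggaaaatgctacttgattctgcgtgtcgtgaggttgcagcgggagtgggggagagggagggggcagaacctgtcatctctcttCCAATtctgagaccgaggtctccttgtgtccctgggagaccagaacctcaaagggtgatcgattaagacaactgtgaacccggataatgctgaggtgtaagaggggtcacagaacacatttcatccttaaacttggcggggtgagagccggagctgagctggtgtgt
Acsl6: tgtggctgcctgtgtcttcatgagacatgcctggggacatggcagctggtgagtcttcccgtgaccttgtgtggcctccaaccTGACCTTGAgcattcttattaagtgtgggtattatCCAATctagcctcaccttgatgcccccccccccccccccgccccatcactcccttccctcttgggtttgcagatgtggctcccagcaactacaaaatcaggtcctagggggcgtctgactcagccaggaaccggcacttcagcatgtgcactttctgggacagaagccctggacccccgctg
Elovl5: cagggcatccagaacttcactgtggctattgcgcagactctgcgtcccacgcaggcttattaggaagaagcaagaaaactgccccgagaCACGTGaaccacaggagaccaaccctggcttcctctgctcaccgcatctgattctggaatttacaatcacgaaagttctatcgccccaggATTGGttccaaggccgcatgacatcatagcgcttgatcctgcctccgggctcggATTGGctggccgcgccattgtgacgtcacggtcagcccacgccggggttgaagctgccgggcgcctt
Elovl4: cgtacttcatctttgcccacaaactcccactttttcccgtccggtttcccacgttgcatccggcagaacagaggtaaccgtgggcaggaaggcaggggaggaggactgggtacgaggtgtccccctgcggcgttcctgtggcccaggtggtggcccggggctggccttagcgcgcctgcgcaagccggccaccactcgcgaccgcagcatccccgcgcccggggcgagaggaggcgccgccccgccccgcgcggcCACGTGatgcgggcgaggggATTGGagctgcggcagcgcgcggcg
Fads3: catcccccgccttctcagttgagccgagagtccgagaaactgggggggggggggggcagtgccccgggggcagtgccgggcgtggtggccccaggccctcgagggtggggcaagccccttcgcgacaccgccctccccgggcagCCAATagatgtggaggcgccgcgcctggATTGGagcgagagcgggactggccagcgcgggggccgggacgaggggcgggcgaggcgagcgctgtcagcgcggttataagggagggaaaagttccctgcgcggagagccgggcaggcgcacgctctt
Fads6: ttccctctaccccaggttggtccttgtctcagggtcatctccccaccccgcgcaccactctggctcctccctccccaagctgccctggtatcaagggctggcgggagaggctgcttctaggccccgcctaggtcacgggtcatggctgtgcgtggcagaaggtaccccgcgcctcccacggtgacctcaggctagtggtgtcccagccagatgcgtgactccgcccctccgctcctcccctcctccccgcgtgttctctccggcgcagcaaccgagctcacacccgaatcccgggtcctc

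The CCAAT box, bound by the factor NF-Y, stood in 7 of the 8 windows, at 2 places in Elovl5 and in Fads3 and once in the others. The window of Fads6 held none of the motifs searched. Elovl5 and Elovl4 each also held the palindromic E-box CACGTG. Both strands were searched. CCAAT occurred in 37.4% of 32851 promoters of the same length. Counted per gene it was in 41.1% of all genes and in 51.6% of members, 33 of the 64 with a promoter, 11 of 16 that rose and 4 of 7 that fell. CACGTG was in 7.15% of promoters, 8.09% of genes and 5 members, 2 that rose and 2 that fell. The element TCACNCCAC, known for sterol regulatory element binding proteins, was in 1.24% of promoters, 1.44% of genes and 2 members, Acsl1 and Fabp6. TCAAGGTCA, the site of oestrogen-related receptors, was in 0.423% of promoters, 0.466% of genes and 1 member, Acsl6, as the complement TGACCTTGA. The direct repeat bound by the receptors PPAR and RXR, searched as 2 copies of AGGTCA with 1 base between them, was in 0.04% of promoters, 0.048% of genes and 0 of the 64 members. None of these motifs overlaps another in the windows shown. The windows of Cpt1c and Elovl4 differed in base composition, with 47.3% and 71.0% G and C. These matches are a description of letters, and binding was not measured.

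Chain elongation and the 3 synthesis genes held the largest shares of risen genes, 66.7% each against 9.94% of all genes, but on few genes. Of 6 elongases tested, 4 rose, 1 fell and Elovl7 did not pass. The median difference of 0.48 stayed positive, at 0.24, when arrays were centred on ribosomal protein genes, but none of the 4 was then called higher. Elovl6, which extends palmitate to stearate, had control signals of 9.49, 9.47 and 9.41 and OBX signals of 9.97, 9.99 and 10.03, tight on each side and without overlap. The difference was 0.54 (SE 0.09, limma adjusted p = 0.0161). Elovl5, an elongase of polyunsaturated chains, went from 10.66, 10.46 and 10.47 to 11.05, 11.35 and 11.00. This was the largest rise among the members (0.60, SE 0.12, limma adjusted p = 0.0309), and mouse 2 moved most. Elovl1, for saturated very long chains, had control signals of 10.11, 10.11 and 9.95 and OBX signals of 10.43, 10.89 and 10.40, a difference of 0.52 (SE 0.12, limma adjusted p = 0.04). Elovl2, which acts after Elovl5 on the way to docosahexaenoate, rose by 0.44 (SE 0.09, limma adjusted p = 0.0338) in a comparison that held only within mice. Its control signals of 7.70, 6.94 and 7.41 overlapped the OBX signals of 8.00, 7.49 and 7.88.

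Elovl4 was the elongase that fell. The enzyme makes very long saturated and polyunsaturated chains and is known from retina and brain. Its signals were 11.38, 11.11 and 11.33 on the control side and 10.58, 9.96 and 10.39 on the OBX side. The sides lay far apart, the difference was -0.96 (SE 0.10, limma adjusted p = 0.0067), and 51.3% of the control signal remained. All 8 of its probe sets were lower in all 3 mice, and 8 of 9 for Elovl6 and 9 of 10 for Elovl5 were higher in all 3.

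Of 8 desaturases tested, 2 rose, 1 fell and 5 did not pass. Fads3, a family member that introduces double bonds into sphingoid bases, had control signals of 7.74, 7.81 and 7.68 and OBX signals of 8.20, 8.29 and 8.42 (difference 0.56, SE 0.10, limma adjusted p = 0.0216). Fads2, the delta-6 desaturase at the entry of polyunsaturated chain synthesis, went from 10.49, 10.13 and 10.20 to 10.80, 10.93 and 10.72 (difference 0.54, SE 0.12, limma adjusted p = 0.0364). Neither gene had overlapping sides, and the difference had the same sign in all 3 mice in 14 of 14 probe sets of Fads2. Fads6, the least studied gene of the family, fell from 10.11, 9.83 and 10.08 to 9.18, 8.46 and 8.91. Its difference of -1.15 (SE 0.11, limma adjusted p = 0.0056) left 44.9% of the control signal, and all 8 of its probe sets were lower in every mouse.

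The delta-5 desaturase Fads1 had a difference of 0.30 and did not pass (limma adjusted p = 0.208). None of the 4 stearoyl-CoA desaturases, which make oleate and palmitoleate, passed. Scd2, the form abundant in brain, was closest, with control signals of 12.25, 12.02 and 12.01 and OBX signals of 12.40, 12.49 and 12.36 that did not overlap (difference 0.33, limma adjusted p = 0.0793). Scd1 disagreed between mice, at -0.40, 0.75 and 0.16 in mice 1, 2 and 3. The Scd genes are close in sequence and lie together, so probes may not separate them fully.

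Of the 3 synthesis genes, Fasn and Gpam rose and Acaca did not pass, and centring on ribosomal protein genes left none of them called. Fasn, the synthase that builds palmitate, had control signals of 9.48, 9.25 and 9.15 and OBX signals of 9.81, 9.89 and 9.80. The OBX arrays lay close together and above every control array (difference 0.54, SE 0.11, limma adjusted p = 0.0273), and 47 of 50 probe sets were higher in all 3 mice. Gpam, the mitochondrial acyltransferase that starts glycerolipid synthesis, went from 9.76, 9.54 and 9.80 to 10.21, 9.91 and 10.16, also without overlap (difference 0.40, SE 0.08, limma adjusted p = 0.0327). Acaca, which makes the malonyl-CoA that Fasn uses and that inhibits Cpt1a, had differences of 0.08, 0.79 and 0.36 in the 3 mice. The mean of 0.41 did not pass (SE 0.15, limma adjusted p = 0.123), and its sides overlapped. Of its 62 probe sets, 60 had a mean difference above 0 but only 35 were higher in all 3 mice.

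The mitochondrial beta-oxidation group included 15 genes, of which 3 rose and none fell, with 12 that did not pass. Acyl-CoA dehydrogenases, such as Acad8 and Acadsb, were placed in this group by family name and not by substrate. These calls were 20% higher and 0% lower, beside 9.94% and 12.7% of all genes. At an unadjusted limma p under 0.05, 6 of the group were higher, Acadsb among them, and 0 lower. The share of all genes past this looser threshold was not counted, so the 6 have no background to be set against. The median difference was 0.18, and it became -0.06 when arrays were centred on ribosomal protein genes. Decr1, the dienoyl-CoA reductase needed for polyunsaturated chains, rose most, from control signals of 9.77, 9.54 and 9.66 to OBX signals of 10.22, 10.08 and 10.18. The mice were nearly alike, and the difference was 0.51 (SE 0.08, limma adjusted p = 0.0178). Acadl, the long-chain dehydrogenase of the first step in mouse tissues, went from 10.32, 10.28 and 10.13 to 10.67, 10.81 and 10.56 (difference 0.44, SE 0.09, limma adjusted p = 0.0291). Hadh, the hydroxyacyl-CoA dehydrogenase of medium and short chains, went from 11.20, 10.96 and 11.07 to 11.58, 11.51 and 11.44 (difference 0.43, SE 0.09, limma adjusted p = 0.0319). For all 3 genes every OBX array exceeded every control array, and all 10 probe sets of Hadh were higher in each mouse.

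The subunits of the trifunctional protein, which carries out the later steps on long chains, gave separate values. Hadha had a difference of 0.31 with sides that did not overlap and did not pass (SE 0.10, limma adjusted p = 0.0907), while Hadhb had one of 0.03 (SE 0.08, limma adjusted p = 0.828), measured by 4 probe sets. The difference between them was not tested. Among the dehydrogenases of the first step, the medium-chain Acadm differed by 0.18 (SE 0.08, limma adjusted p = 0.177) and the very-long-chain Acadvl by -0.18 (SE 0.14, limma adjusted p = 0.4), to which mouse 2 contributed -0.52. Etfa, Etfb and Etfdh, which pass the electrons on, had differences of 0.11, 0.20 and 0.09 and did not pass. The peroxisomal genes Acox2, Acox3 and Decr2 did not pass either, at 0.22, -0.04 and -0.07.

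Thioesterases, which release free fatty acid from coenzyme A, went in both directions, with 2 higher, 3 lower and 6 that did not pass. Acot11, induced by cold in mouse brown fat, had control signals of 7.04, 7.26 and 6.92 and OBX signals of 7.74, 7.49 and 7.53 (difference 0.51, SE 0.12, limma adjusted p = 0.0424). Acot1, the cytosolic long-chain form, went from 7.33, 7.27 and 7.20 to 8.14, 7.62 and 7.59 (difference 0.52, SE 0.12, limma adjusted p = 0.0426), with the largest value in mouse 1. Neither had overlapping sides. Acot13, a mitochondria-associated form, went from 9.60, 9.44 and 9.63 to 9.30, 8.84 and 9.20, without overlap (difference -0.44, SE 0.10, limma adjusted p = 0.0358). Acot12, which hydrolyses acetyl-CoA, and Acot4, a peroxisomal succinyl-CoA thioesterase in mouse, had differences of -0.45 (limma adjusted p = 0.0376) and -0.37 (limma adjusted p = 0.0389). Both had overlapping sides and moved down within each mouse. Acot4 was dim, at 5.00 to 5.71, and only 2 of its 6 probe sets were lower in all 3 mice. Acot1 to Acot6 form a family of near-identical neighbours, so their signals may be shared.

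Fatty acid binding proteins carry long chains through the cytosol. Of 9 genes with a signal, 5 were tested and 4 were too dim. Fabp5, the epidermal form, went from 6.80 to 7.24 on the control arrays to 7.88, 7.34 and 7.55 on the OBX arrays of mice 1, 2 and 3 (difference 0.58, SE 0.11, limma adjusted p = 0.028). Fabp3, the heart form, went from 5.97, 5.88 and 5.61 to 6.61, 6.32 and 6.15 (difference 0.54, SE 0.09, limma adjusted p = 0.0182). The sides of both genes were separate, but few probe sets carried the rise in every mouse, 3 of 6 for Fabp5 and 2 of 7 for Fabp3. Fabp7, the form of glia, had differences of -0.29, 1.12 and 0.14 and did not pass (limma adjusted p = 0.438). Fabp4, the form of fat cells and macrophages, differed by -0.15 (SE 0.15, limma adjusted p = 0.516) with overlapping sides.

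Differences also varied between the 3 mice. Of the 18 members that rose, the largest difference was in mouse 1 for 6, in mouse 2 for 7 and in mouse 3 for 5, with medians of 0.45, 0.50 and 0.52. Of the 8 members that fell, mouse 2 had the deepest difference in 6, with medians of -0.46, -0.60 and -0.50 in mice 1, 2 and 3. Mean differences of the mature OSN markers were -1.14, -1.93 and -1.51 in these mice, deepest in mouse 2, and those of the macrophage markers 0.60, 1.10 and 0.62, highest in mouse 2. Globose basal markers stood at 0.71, 0.64 and 0.91. Endothelial markers, with 1 of 10 higher, stood at 0.13, 1.18 and 0.41, and ensheathing glia markers, with 3 of 8 higher, at 0.26, 0.62 and 0.31. Bowman gland markers, 3 of 5 higher, varied most between mice, at 1.82, 0.21 and -0.16. Sustentacular markers rose for 1 of 11, immature OSN markers for 1 of 11 with 2 lower, and horizontal basal markers for 2 of 6 with 0 lower. Among adipocyte markers 0 of 6 tested passed in either direction (limma, with 0 at an unadjusted p under 0.05 among those tested), and Lep was too dim to test. Respiratory epithelium markers passed for 0 of 5 (limma, with 1 at an unadjusted p under 0.05). These markers moved on the same arrays as the fatty acid genes, and their part in the values above was not tested.

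**Figure D3:**
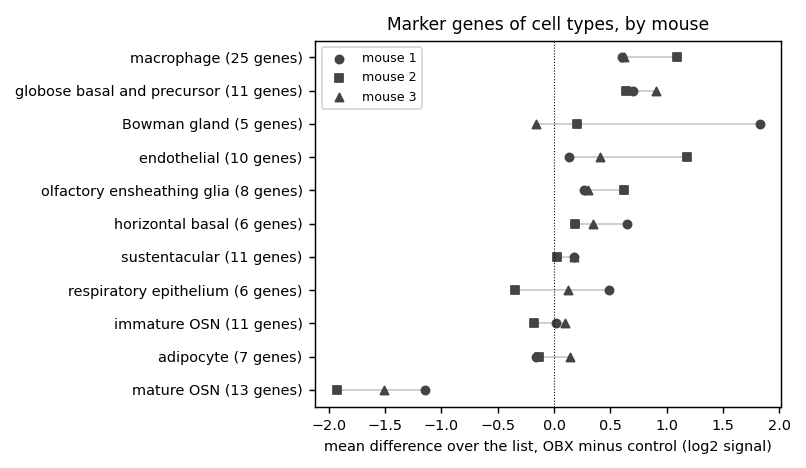
Mean difference over each list of cell type markers (log2 signal, OBX minus control, x axis) with 1 symbol per mouse. Mature OSN markers were lowest in all 3 mice and deepest in mouse 2. Macrophage, globose basal, horizontal basal, sustentacular, ensheathing glia and endothelial markers were above 0 in every mouse.

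The rest of the pathway was described with 115 listed genes outside the families above, of which 101 had a signal and 100 were tested. Of these, 11 were higher and 13 lower, 11.0% and 13.0% against 9.94% and 12.7% of all genes, with a median difference of 0.03. The wider pathway was therefore near the background, and centring on ribosomal protein genes left it with 0 higher and 24 lower. On that scale 1.51% of all genes were higher and 27.9% lower. Of 6 genes of carnitine transport and synthesis, 2 were higher, 0 lower and 4 did not pass. Slc22a5, the plasma membrane carnitine transporter, had control signals of 9.72, 9.53 and 9.41 and OBX signals of 10.29, 10.19 and 10.13, without overlap (difference 0.64, SE 0.09, limma adjusted p = 0.0109). Its neighbour Slc22a21 rose by 0.50 (limma adjusted p = 0.0187), and the 2 genes are similar in sequence. Slc25a20, which exchanges acylcarnitine across the inner membrane between Cpt1a and Cpt2, had a difference of 0.08 and did not pass (limma adjusted p = 0.527).

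A list of 13 further genes drawn up for mitochondrial beta-oxidation had 3 higher and 1 lower, of which none is an enzyme of the mitochondrial fatty acid spiral itself. Dbi, the acyl-CoA binding protein, rose by 0.59 (SE 0.12, limma adjusted p = 0.0309), Nudt19, a peroxisomal hydrolase of coenzyme A, by 0.55 (limma adjusted p = 0.0289) and Ivd, of leucine breakdown, by 0.38 (limma adjusted p = 0.0394). Acbd5, which tethers peroxisomes to the endoplasmic reticulum, had a difference of -0.45 (limma adjusted p = 0.0284). Of 15 peroxisomal genes, Cat (catalase) and Pecr rose by 0.56 and 0.40 and Abcd2, Pex7 and Hacl1 fell by 0.81, 0.43 and 0.36. Abcd2, a transporter of very long acyl-CoA, had control signals of 11.66, 11.51 and 11.75 against OBX signals of 10.95, 10.39 and 11.16.

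Of 14 other genes of synthesis and chain elongation, 1 was higher, 2 were lower and 11 did not pass. Among the dehydratases, which act beside the elongases, Hacd4 rose by 0.77 (SE 0.18, limma adjusted p = 0.0418) and Hacd2 fell by 0.52 (SE 0.08, limma adjusted p = 0.0165), while Hacd1 and Hacd3, at -0.20 and 0.06, did not pass (limma adjusted p = 0.164 and 0.788). Aacs, which activates acetoacetate for lipid synthesis, had a difference of -0.52 (limma adjusted p = 0.0419). Of 25 triglyceride and lipid droplet genes, Lypla1 and Agpat2 were higher, by 0.39 and 0.36, and Cidea, Agpat4 and Agpat3 lower, by 0.88, 0.76 and 0.41. Acsf2 was the one gene of 9 in uptake and activation that passed, at 0.38. Lpl, the lipase of circulating lipoproteins, showed a difference of 0.88 that did not pass (SE 0.25, limma adjusted p = 0.0622), with 0.18, 1.04 and 1.42 in the 3 mice.

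Among 18 regulators of lipid genes, 0 rose and 4 fell (limma, with 1 higher at an unadjusted p under 0.05, Insig1). Of all genes 9.94% were higher and 12.7% lower. The list had a median difference of 0.03, with 9 genes above 0 and 9 below. Ppargc1a, the coactivator known for driving mitochondrial and oxidation genes, had control signals of 9.33, 8.93 and 9.39 and OBX signals of 8.17, 7.61 and 8.17. No OBX array came near a control array, and the difference was -1.23 (SE 0.09, limma adjusted p = 0.00274). Its relative Ppargc1b fell by 0.48 (SE 0.09, limma adjusted p = 0.0238). Prkaa2, a catalytic subunit of AMP-activated kinase, fell by 0.54 (limma adjusted p = 0.0297), and Scap, the escort of sterol regulatory element binding proteins, by 0.36 (limma adjusted p = 0.0391). The receptor genes Ppara and Pparg, at 0.27 and 0.25, and Srebf1, at 0.16, did not pass (limma adjusted p = 0.254, 0.395 and 0.301).

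**Figure D4:**
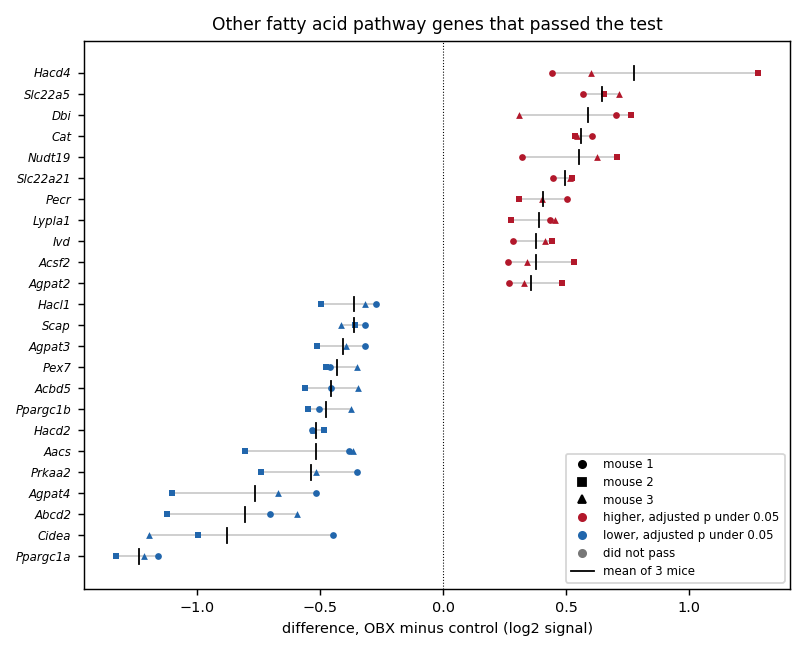
Difference between the OBX and control side (log2 signal, x axis) for the 24 pathway genes outside the families that passed the test, with 1 symbol per mouse and a bar at the mean of 3 mice. The 11 in red rose and the 13 in blue fell, with Ppargc1a the lowest at -1.23. With arrays centred on ribosomal protein genes 0 were called higher.

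The study itself names 12 fatty acid genes, Elovl5, Elovl6, Cpt1a, Crot, Acsl5, Acsl1, Acadl, Hadh, Gpam, Acot11, Pecr and Lypla1, as a group of increased transcripts, and 11 of them were higher here, all but Acsl1. Because the study chose that list on these same arrays, the count is not independent evidence of its direction. Outside it, 9 further members rose: Fads2, Fads3, Elovl1, Elovl2, Fasn, Decr1, Acot1, Fabp3 and Fabp5. For the 12 genes it names, the study proposes expression mainly in macrophages. It did in situ hybridization for mRNAs drawn from this and a lysosomal category. Labelling of cells in olfactory nerve bundles was increased on the OBX side, a pattern the study describes as that of macrophages. The cell type that carries the rises was not tested here.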

How the data were processed

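RNA of the OBX and control epithelium of 3 mice was measured on 6 arrays, 1 per sample. The deposited log2 values are the authors' RMA signals of exon-level probe sets from Affymetrix Expression Console. Its version, like the build of the annotation, is not given in the sources used here. Precision is limited by the number of arrays. The study's methods describe gene-level values, so that step was repeated.

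Of 229581 probe sets, 209279 have 1 gene symbol in the platform annotation, 4446 have several and 15856 are unnamed. Symbols were updated through RefSeq names (14190 current, 2120 updated, 25 kept, 45 unmatched), giving 16380 genes with a median of 11 probe sets, of which 541 have 1. Of the members, 3 were found by updated symbols (Acot13, Eci1 and Eci2). Probe sets were combined by Tukey's median polish, genes in the lowest 10% by mean signal were dropped, and each gene was fitted with limma 3.58.1 (lmFit, eBayes) in R 4.3.3 with mouse as a block, two-sided, with Benjamini-Hochberg adjustment over 14742 genes and a threshold of 0.05. Tables were read with data.table (version 1.17.8) and pandas 2.3.3, and figures were drawn with matplotlib 3.10.9 in Python 3.11.15.

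Pairing comes from the labels, since same-numbered samples are both sides of 1 animal. With side means removed, the correlation over genes between both epithelia of an animal was -0.07, 0.27 and 0.24. The members and gene lists were chosen with earlier results of these data known. Every member could be named. By rule, signals were given per array for at most the 12 higher and 12 lower members of smallest p and for members the study names, and of each list at most the 4 genes of smallest p were named. Beyond that rule, and after their values were seen, Elovl1, Elovl2, Fads2, Acot1 and Scd2 were given per array, every list gene of the pathway that passed was named, and Slc25a20, Lpl, Ppara, Pparg, Srebf1, Insig1, Hacd1, Hacd3, Lep and Omp were added. Exon usage was planned and is not reported, because its test called too many unchanged genes in simulated data. The gene-level fit was tested on simulated data. Alternatives changed 1 choice at a time: the block, the test (once also without adjustment), the signal filter, the variance model, the normalization, the gene summary and the mice. Promoters were matched by symbol for 64 of the 79 members.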

Additional observations from a re-analysis of the deposited data

How the results depend on the processing

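No fatty acid gene called higher or lower changed direction under any alternative run. Changing the block, the test, the signal filter or the variance model leaves the difference itself unchanged, so direction could not change there. Each of these members had the same sign in every mouse, so leaving out a mouse could not change it either. Only the normalizations and the gene summary could have changed it. The main fit called 18 members higher and 8 lower. Without the mouse block the fit called 13 and 4, all of them called in the main fit. The methods' t-test called 16 and 9 at an unadjusted p under 0.05, of which 13 and 8 were called in the main fit. After Benjamini-Hochberg adjustment the t-test called 0 and 0, when 0 genes were higher and 1 lower among all 14742. The wider pathway, 11 higher and 13 lower, had 9 and 9 without the block and 0 and 0 in the adjusted t-test. Centring on ribosomal protein genes gave 0 higher and 13 lower members, among them the 8 lower, and 0 higher and 24 lower pathway genes. With this centring 1.51% of all genes were higher and 27.9% lower. The count of macrophage markers called higher went from 12 to 5 in the unadjusted t-test, with 4 called in both, and to 0 in the adjusted one. Leaving out 1 mouse gave 0 to 12 higher and 3 to 5 lower members, and 0 to 9 higher and 1 to 6 lower pathway genes. Over all genes these fits called 0.421% to 8.39% higher and 5.56% to 10.7% lower. Without mouse 3 the fit kept Acsl6, Elovl4 and Fads6 alone. Decr1, Elovl5, Elovl6 and Fads3 were kept without mouse 1 and without mouse 2. Without the block Elovl2, Acot12, Acot4, Acot13, Acot1, Elovl1, Fabp5, Gpam and Acss1 lost their calls, and 13 of the uncalled members passed in at least 1 alternative, Acot7 in 4. The other filters, variance model, normalizations and the mean of probe sets gave 16 to 21 higher and 7 to 8 lower members. Each fit on 2 mice has fewer samples by construction; the cause of other changes was not tested. The alternatives for exon usage were not run.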
